A study of Mus musculus with 24 samples.

Results

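The effect of dystrophin loss on the heart was read in mice that also lack a working Cmah gene, by setting 3 hearts of Cmah knockout mdx mice (here Cmah KO mdx) against 3 hearts of Cmah knockout mice with intact dystrophin (Cmah KO). These 6 arrays, chosen by the tissue and genotype in their titles, are 6 of the 24 in the study, which also holds wild type (WT) and mdx hearts and the gastrocnemius, a calf muscle, of the same 12 animals. Every mouse was male and 2 months old, and 25 ng of RNA was amplified with an Ovation kit for each array. Cmah KO and WT mice carry the strain label C57BL/6J, and Cmah KO mdx and mdx mice the label C57BL6/10J, so dystrophin loss and strain cannot be told apart in any comparison below. Both groups carry the Cmah mutation, and whether each knockout line goes back to 1 founder is not stated in the labels. Values are log2 of the deposited array intensity, and the number of arrays limits their precision.

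Dystrophin links the actin skeleton of a muscle fibre to a membrane complex of dystroglycan, sarcoglycans, syntrophins and dystrobrevin, which in turn grips laminin outside the cell. mdx mice carry a stop mutation in Dmd and are the usual mouse model of Duchenne muscular dystrophy: their limb muscles go through early rounds of necrosis and regeneration, whereas their hearts develop fibrosis and weaken only at a later age. Cmah encodes the hydroxylase that turns the sialic acid Neu5Ac into Neu5Gc. Humans lack a working copy, and the knockout carries a mutation of the human kind and so has no Neu5Gc, which caps many glycans of the muscle surface in ordinary mice.

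The arrays of the Cmah KO and Cmah KO mdx hearts were of uneven quality. The 3' minus 5' difference of the Gapdh control probe sets, which grows when RNA is broken or copied incompletely, was 1.48, 0.54 and 4.29 in Cmah KO replicates 1, 2 and 3 and 1.60, 4.43 and 0.48 in Cmah KO mdx replicates 1, 2 and 3. The 6 WT and mdx hearts read 0.44 to 1.09. Cmah KO replicate 3 had a median correlation of 0.543 with the other heart arrays and an upper quartile of intensity of 107, and Cmah KO mdx replicate 2 had 0.857 and 190. The other 10 heart arrays had median correlations between 0.942 and 0.976 and upper quartiles between 227 and 259. Differences are therefore given over the 6 arrays and over 4 arrays, Cmah KO replicates 1 and 2 against Cmah KO mdx replicates 1 and 3. The 4-array values come from a fit of 10 heart arrays, WT and mdx included.

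**Figure D1:**
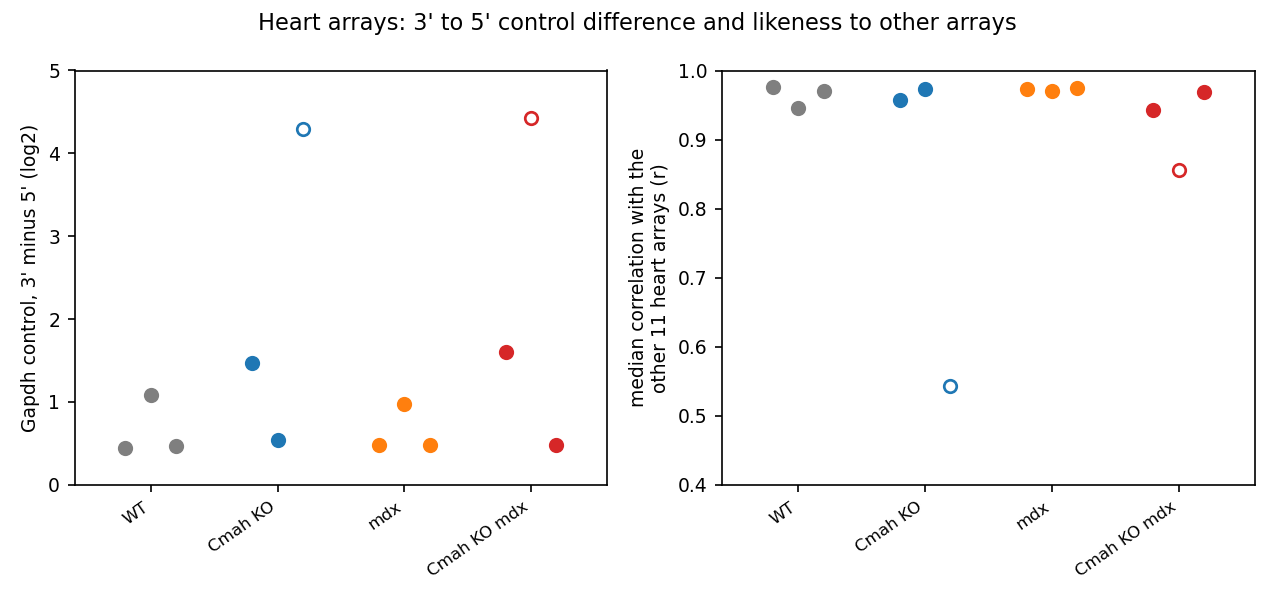
The left panel plots the 3' minus 5' log2 difference of the Gapdh control probe sets, and the right panel the median Pearson correlation with the other heart arrays, for each of the 12 heart arrays by group. The open points, Cmah KO replicate 3 (4.29 and 0.543) and Cmah KO mdx replicate 2 (4.43 and 0.857), stand apart from the other 10 in both panels.

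All 8 heart muscle markers looked up were bright in the 6 hearts. Their summed level was 16.17, 16.35 and 15.51 in Cmah KO and 16.21, 16.15 and 16.27 in Cmah KO mdx (log2 of the sum), against 14.38 to 14.75 in the gastrocnemius of the same animals. Actc1, the cardiac actin, read 13.10 to 13.83 in every one of the 6 arrays, and Myh6, the main adult cardiac myosin of the mouse, 13.04 to 13.48. In gastrocnemius Actc1, Myl2 and Myl3 were also bright (11.78 to 13.54). Gastrocnemius replicates 1, 2 and 3 read 11.38, 6.14 and 4.84 for Myh6 in Cmah KO and 8.99, 5.42 and 4.74 in Cmah KO mdx. For Ryr2 they read 8.93, 2.73 and 3.45, and 6.49, 2.67 and 3.51. Replicate 1 of both groups thus held more of these cardiac transcripts, and their part in the comparison of tissues below was not tested.

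No probe set passed the test between the groups. Of 29421 probe sets tested with limma, 0 (0%) reached an adjusted p below 0.05 over the 6 arrays (lowest Benjamini-Hochberg adjusted p 0.841), and 0 (0%) over 4 arrays (lowest 0.59). At an unadjusted p below 0.05 there were 321 higher (1.09%) and 247 lower (0.84%) over 6 arrays, and 96 higher (0.326%) and 264 lower (0.897%) over 4. Evenly spread p-values would give 1471 in all. All heart gene values that follow are thus measured levels and differences that did not pass, and unadjusted p-values are given only to rank them. The median difference of all 13101 genes was 0.31 over 6 arrays and -0.02 over 4.

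Dmd was lower in Cmah KO mdx at both its bright probe sets once the low-quality arrays were set aside, and close to the Cmah KO level at its other 2. The brightest probe set read 9.66, 10.09 and 8.01 in Cmah KO and 8.81, 8.57 and 8.16 in Cmah KO mdx, so that the groups overlapped only through Cmah KO replicate 3, the lowest of all 6. The log2 difference was -0.73 ± 0.52 (SE) over 6 arrays and -1.39 ± 0.33 over 4 (unadjusted p = 0.185 and 0.00254 in limma). WT hearts read 9.89 to 10.07 and mdx hearts 8.44 to 9.12, which do not overlap. Their difference was -1.10 ± 0.52, with an SE of 0.27 in the fit of 10 arrays. A second probe set of Dmd read 9.34, 10.16 and 6.75 in Cmah KO and 7.80, 5.12 and 8.24 in Cmah KO mdx, again overlapping only through Cmah KO replicate 3 (-1.70 ± 0.92 over 6 arrays, -1.73 ± 0.51 over 4). The dimmer probe sets of Dmd stood at 0.97 ± 0.67 and 0.59 ± 0.53 over 6 arrays and at -0.12 ± 0.53 and -0.09 ± 0.43 over 4. The mdx mutation is a stop codon and not a deletion, so the transcript is a partial check of the genotype.

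The other members of the dystrophin complex and its linkers had differences near that of the median gene over 4 arrays. Of 26 genes on the list, all tested, 8 were higher and 18 lower over 4 arrays, with a median difference of -0.11 against -0.02 for all genes, and only Dmd had an unadjusted p below 0.05 (of all genes, 0.924% were lower at that p and 0.275% higher). Over 6 arrays 17 were higher (median 0.17, all genes 0.31). Differences over 4 arrays of the core members were 0.08 ± 0.40 for Dag1, the dystroglycan gene, -0.05 ± 0.72 for Sgca and -0.12 ± 0.23 for Sgcb, both sarcoglycans, and 0.11 ± 0.23 for Sspn, sarcospan. Over 6 arrays the values of Dag1, Sgca, Sgcb and Sspn were 0.98 ± 0.66, 0.98 ± 0.84, 0.40 ± 0.40 and 1.66 ± 1.19. Sntb2, a syntrophin, read 7.09, 6.67 and 5.55 in Cmah KO and 6.40, 5.23 and 6.33 in Cmah KO mdx (-0.45 ± 0.49 over 6 arrays, -0.52 ± 0.27 over 4). Integrin Itgb1 and the linkers Vcl and Tln2 stood at 0.30 ± 0.50, -0.11 ± 0.28 and 0.02 ± 0.33 over 4 arrays and at 1.88 ± 1.32, 0.75 ± 0.58 and 0.66 ± 0.46 over 6. Utrn, the gene of the dystrophin relative utrophin, read 12.09, 12.02 and 9.54 in Cmah KO and 11.93, 10.56 and 11.65 in Cmah KO mdx. Its difference turned from 0.16 ± 0.64 over 6 arrays to -0.26 ± 0.26 over 4. Dystroglycan-modifying enzymes had a median of 0.07 over 4 arrays, with 9 of 13 higher and 0 with an unadjusted p below 0.05.

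Cmah read 7.72, 6.44 and 5.33 in Cmah KO and 7.62, 7.56 and 5.66 in Cmah KO mdx, with WT hearts at 6.09, 8.40 and 5.48. The levels with and without the knockout overlapped, and whether these probes lie in the altered part of the gene is not known. Its difference was 0.45 ± 0.82 over 6 arrays and turned to -0.44 ± 0.95 over 4. Over the 21 tested genes of sialic acid metabolism the 4-array median was -0.06, with 9 higher and 12 lower. The member with the smallest p was St8sia1, the ganglioside GD3 synthase, at 5.41, 4.64 and 6.06 in Cmah KO and 3.54, 4.74 and 4.12 in Cmah KO mdx (-1.23 ± 0.51 over 6 arrays, -1.19 ± 0.46 over 4). Nnt, a mitochondrial gene partly deleted in C57BL/6J, differed by -0.04 ± 0.37 over 6 arrays and -0.08 ± 0.25 over 4. Whether its probe set lies in the deleted part is not known, so the value is no check of the strain labels. Of the 20 protein-coding genes nearest Dmd on the X chromosome, 13 had a probe set and 4 besides Dmd were tested. Their differences lay between -0.05 and 0.24 over 4 arrays and between 0.12 (Tsga8) and 1.55 (Tab3) over 6. Other tested probe sets of Prrg1 and Tmem47, both among the 4, stood at 0.90 and 0.18 over 4 arrays and 0.49 and 0.64 over 6.

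Among genes lower in Cmah KO mdx hearts, Sprr1a differed alike with and without the low-quality arrays. It encodes a small proline-rich protein known from skin and from stressed cardiac muscle. Sprr1a read 6.51, 6.70 and 6.65 in Cmah KO and 4.08, 4.89 and 4.99 in Cmah KO mdx. All 3 Cmah KO mdx hearts lay below all 3 Cmah KO hearts, and neither low-quality array stood out. The difference was -1.97 ± 0.44 over 6 arrays and -2.07 ± 0.45 over 4. The unadjusted p-values of limma were 0.000752 and 0.00128. The same gene read 6.15, 6.63 and 7.44 in WT and 4.44, 4.77 and 4.86 in mdx hearts, which share no array with the Cmah KO groups, a difference of -2.05 ± 0.44. The Cmah KO mdx and mdx means, 4.65 and 4.69, lay below the 40th percentile of heart values (4.78), so the size is uncertain. In gastrocnemius the difference between Cmah KO mdx and Cmah KO was 1.05 ± 0.53. The 250 bases before its start are shown because Sprr1a is known as a target of AP-1. The capitals mark both matches to TGANTCA, a palindrome that reads alike on both strands, at 146 and 116 bases before the start, and 6.87% of 27025 RefSeq promoters of this length hold a match (GRCm38.p6, chr3:92485882-92486131, minus strand).
Sprr1a: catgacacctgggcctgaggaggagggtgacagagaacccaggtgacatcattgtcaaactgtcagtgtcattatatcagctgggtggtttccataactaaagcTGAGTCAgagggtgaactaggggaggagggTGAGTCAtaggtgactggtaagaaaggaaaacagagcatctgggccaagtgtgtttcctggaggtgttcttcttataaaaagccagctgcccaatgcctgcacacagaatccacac

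Cpxm2, a carboxypeptidase-like protein of the matrix, read 9.10, 8.69 and 9.47 in Cmah KO and 6.61, 4.76 and 7.10 in Cmah KO mdx. No arrays overlapped, and the lowest value came from the low-quality Cmah KO mdx replicate 2. The difference was -2.93 ± 0.63 over 6 arrays and -2.04 ± 0.53 over 4. In mdx hearts it read 6.60 to 7.95 against 7.97 to 9.31 in WT, so that all 6 dystrophin-deficient hearts lay below all 6 others. Tuft1, known from enamel, read 7.04, 6.79 and 5.31 in Cmah KO and 5.59, 5.01 and 5.98 in Cmah KO mdx (-0.85 ± 0.49 over 6 arrays, -1.13 ± 0.24 over 4). The mdx hearts, at 5.75 to 5.85, lay below the WT hearts, at 6.84 to 6.97. Slc2a13, a proton and myo-inositol transporter, read 6.64, 6.55 and 6.33 in Cmah KO and 5.47, 2.77 and 5.47 in Cmah KO mdx (-1.13 ± 0.29 over 4 arrays, -1.94 ± 0.63 over 6). Its 6-array mean in Cmah KO mdx lay below the 40th percentile of heart values.

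Heat shock genes of the Hsp70 pair were lower as well, and the pair cannot be read as separate genes. Hspa1a and Hspa1b encode the inducible Hsp70 chaperone and are near-identical neighbours on chromosome 17, so the array may not tell their transcripts apart. Hspa1a read 6.79, 5.24 and 10.30 in Cmah KO and 2.58, 4.63 and 3.99 in Cmah KO mdx, with no overlap. Its highest value came from the low-quality Cmah KO replicate 3. The difference was -3.71 ± 1.06 over 6 arrays and -2.73 ± 0.79 over 4, with unadjusted p-values of 0.00427 and 0.00723 in limma. The Cmah KO mdx mean lay below the 40th percentile of heart values (4.78), so the size is uncertain. The brightest Hspa1b probe set read 11.76, 10.74 and 12.96 in Cmah KO and 9.44, 10.87 and 9.32 in Cmah KO mdx (-1.95 ± 0.74 over 6 arrays, -1.87 ± 0.75 over 4), and mdx against WT stood at -1.89 ± 0.74. The other tested Hspa1b probe sets stood at -3.13 ± 0.71 and -3.36 ± 0.79 over 6 arrays, without overlap. Over 4 arrays they stood at -2.35 ± 0.71 and -2.36 ± 0.83, and their Cmah KO mdx means lay below the 40th percentile. In gastrocnemius Hspa1a differed by -2.70 ± 0.87. There the animal of Cmah KO heart replicate 3 again read highest of its group (9.24 against 7.08 and 6.54). Of the 23 tested genes of heat shock and unfolded protein 10 were higher and 13 lower over 4 arrays (median -0.08), and besides this pair Hsph1 (-0.69 ± 0.27) and Dnaja1 (-0.69 ± 0.30), both of the same chaperone system, had unadjusted p below 0.05. Over 6 arrays Hsph1 stood at -0.47 ± 0.39 and Dnaja1 at -0.23 ± 0.41. Hspa8, the constitutive relative, stood at 0.11 ± 0.39 over 6 arrays and 0.23 ± 0.30 over 4.

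The promoters of the pair are printed to show how alike the copies are: 247 of 250 bases before the start match, and the differences, counted from the first printed base with the Hspa1a base first, are C44T, T47C and T249G. The capitals mark the one match to GAANNTTC or TTCNNGAA, units of the heat shock element, at 104 bases before the start. Both strands were searched, and 12.9% of 27025 RefSeq promoters hold a match (GRCm38.p6, chr17:34972157-34972406 for Hspa1a and chr17:34959239-34959488 for Hspa1b, minus strand).
Hspa1a: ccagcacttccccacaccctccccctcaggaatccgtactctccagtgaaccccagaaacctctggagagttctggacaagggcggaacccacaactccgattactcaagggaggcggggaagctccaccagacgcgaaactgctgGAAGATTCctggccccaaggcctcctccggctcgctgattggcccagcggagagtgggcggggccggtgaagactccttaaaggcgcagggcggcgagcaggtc
Hspa1b: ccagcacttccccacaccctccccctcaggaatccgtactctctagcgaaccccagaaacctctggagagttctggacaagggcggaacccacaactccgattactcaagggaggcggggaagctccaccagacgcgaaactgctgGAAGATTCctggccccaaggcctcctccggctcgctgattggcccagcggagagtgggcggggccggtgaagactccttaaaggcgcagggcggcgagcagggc

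Acta1 encodes the skeletal actin that the fetal and the loaded heart also uses. It read 10.76, 11.55 and 10.72 in Cmah KO and 9.55, 7.36 and 8.75 in Cmah KO mdx, with no overlap and the lowest value in the low-quality array. The difference was -2.45 ± 0.69 over 6 arrays and -2.0 ± 0.72 over 4. WT hearts read 9.78 to 11.70 and mdx hearts 9.48 to 11.13, which overlap. Its promoter is shown for the CArG box in capitals, the binding motif of serum response factor, at 73 bases before the start. The box was searched on both strands and is found in 1.4% of RefSeq promoters of this length (GRCm38.p6, chr8:123894776-123895025, minus strand).
Acta1: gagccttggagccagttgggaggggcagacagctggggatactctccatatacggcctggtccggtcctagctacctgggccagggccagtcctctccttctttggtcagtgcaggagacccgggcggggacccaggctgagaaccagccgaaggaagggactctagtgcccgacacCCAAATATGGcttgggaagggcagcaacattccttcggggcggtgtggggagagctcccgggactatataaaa

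Acta1 did not stand alone, since genes of skeletal muscle fibres as a group read low in part of the Cmah KO mdx hearts. The 9 skeletal muscle markers had summed levels of 12.95, 13.62 and 13.52 in Cmah KO and 13.63, 9.0 and 9.82 in Cmah KO mdx. Cmah KO mdx replicate 1 thus matched the Cmah KO hearts, and replicates 2 and 3 lay far below it. Gastrocnemius arrays of these animals read 16.43 to 16.73. No marker was below the 40th percentile in all 6 hearts. Mylpf, a light chain of fast fibres, read 9.88, 11.12 and 11.20 in Cmah KO and 11.43, 5.64 and 7.14 in Cmah KO mdx. Myh2, a fast myosin heavy chain, read 8.60, 9.90 and 7.37 against 8.40, 4.32 and 4.55. Atp2a1, the fast calcium pump, read 10.39, 10.57 and 10.44 against 10.07, 5.73 and 7.00, without overlap. Of 20 skeletal muscle genes tested, 3 were higher over 6 arrays (66.6% of all genes were) and 0 over 4 (46.5%), with medians of -1.86 and -0.78. In mdx against WT the median was 0.41. The level also varied among WT hearts, where the median skeletal gene stood at 1.38, -1.39 and -0.03 against the WT mean, beside 0.25, 0.67 and 0.56 in Cmah KO and 0.62, -2.16 and -1.73 in Cmah KO mdx. Mylpf read 12.24, 8.73 and 10.42 in WT. The part of these transcripts in the values of Acta1, or of Stac3, a gene of skeletal muscle coupling (4.79, 5.37 and 7.00 against 3.78, 4.03 and 3.95), was not tested. Fewer cells of a type and less RNA per cell cannot be told apart in tissue samples.

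**Figure D2:**
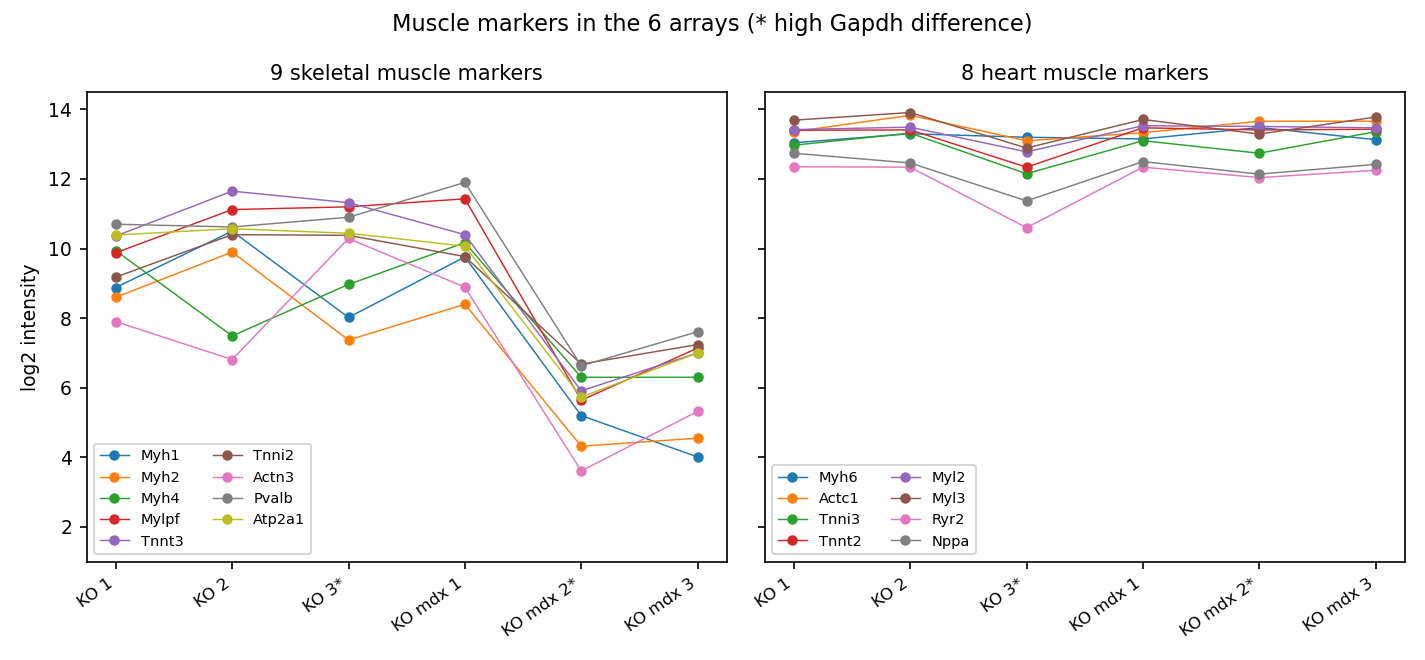
Log2 intensity of 9 skeletal muscle markers (left) and 8 heart muscle markers (right) in each of the 6 hearts, one line per gene, with asterisks on both arrays with a high Gapdh difference. Skeletal markers are low in Cmah KO mdx replicates 2 and 3 (summed 9.0 and 9.82) and not in replicate 1 (13.63), whereas the heart markers stay between 15.51 and 16.35 when summed.

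Other genes lower in all 3 Cmah KO mdx hearts than in any Cmah KO heart were Chodl, a C-type lectin (-1.66 ± 0.49 over 4 arrays), Ccn5, a secreted matricellular protein also called Wisp2 (-1.17 ± 0.44), the glypican Gpc2 (-1.01 ± 0.31), Wdr66 (-0.80 ± 0.30) and Stac3 (-1.21 ± 0.38). Over 6 arrays they stood at -1.66 ± 0.47, -1.62 ± 0.49, -1.28 ± 0.40, -1.86 ± 0.59 and -1.80 ± 0.55. The other tested probe sets of Wdr66 stood at 0.12 and -0.66 over 6 arrays and 0.45 and -0.13 over 4. Ccn5 read 7.18, 7.30 and 8.38 in Cmah KO and 6.35, 5.87 and 5.78 in Cmah KO mdx. Over all genes 154 (1.18%) were lower without overlap over 6 arrays and 1294 (9.88%) over 4. Fut10, a fucosyltransferase, read 5.96, 5.35 and 4.78 against 4.29, 5.16 and 3.94, and Tmem181a read 10.79, 10.36 and 8.58 against 9.05, 10.13 and 8.62. Over 4 arrays they stood at -1.54 ± 0.34 and -1.74 ± 0.39, and over 6 at -0.90 ± 0.47 and -0.64 ± 0.61, with overlap. The mdx minus WT values were 0.29 ± 0.47 and 0.06 ± 0.61. The Cmah KO mdx means of Chodl, Wdr66, Stac3 and Fut10 lay below the 40th percentile of heart values, so their sizes are uncertain.

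Of the genes higher in Cmah KO mdx hearts, S100a8 and S100a9 go together, since they encode the subunits of calprotectin, a protein stored in neutrophils. S100a8 read 6.60, 6.10 and 5.13 in Cmah KO and 7.32, 8.96 and 8.55 in Cmah KO mdx. S100a9 read 6.80, 7.03 and 6.69 against 7.68, 8.31 and 9.10. Neither gene overlapped between the groups, and the differences were 2.33 ± 0.63 and 1.53 ± 0.51 over 6 arrays and 1.58 ± 0.66 and 1.48 ± 0.58 over 4. WT hearts read 5.78 to 7.51 and 6.45 to 7.94, and their highest values overlapped those of Cmah KO mdx. In mdx against WT the genes stood at 0.09 ± 0.63 and 0.21 ± 0.51, with overlap. Of 12 neutrophil genes on the array only 4 were bright enough to be tested, the others being Ltf (3.90, 3.97 and 6.09 against 4.20, 5.94 and 6.66) and Lcn2 (6.42, 7.14 and 4.06 against 5.65, 8.18 and 6.93). Ltf stood at 0.95 ± 0.83 over 6 arrays and 1.49 ± 0.94 over 4, and Lcn2 turned from 1.04 ± 0.85 to -0.50 ± 0.69. Elane, another neutrophil gene, read 2.68 to 3.89 and 2.95 to 3.03, and Mpo 2.84 to 5.37 and 2.86 to 3.82. Low transcripts of these genes do not show whether neutrophils were present. Ccr1, a chemokine receptor of myeloid cells, read 3.78, 2.84 and 5.36 against 5.04, 6.85 and 4.25 (1.39 ± 0.70 over 6 arrays, 1.33 ± 0.39 over 4). It went the other way in mdx hearts, at 3.15 to 3.45 against 4.04 to 4.55 in WT (-0.93 ± 0.70). The means of Cmah KO, WT and mdx hearts lay below the 40th percentile of heart values, so the size is uncertain.

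Acot1, an acyl-CoA thioesterase of fatty acid metabolism, was higher in every dystrophin-deficient heart than in every other heart. It read 7.09, 6.81 and 6.41 in Cmah KO and 7.98, 9.21 and 7.90 in Cmah KO mdx, and 6.10 to 6.78 in WT and 7.79 to 7.94 in mdx. The difference was 1.59 ± 0.45 over 6 arrays and 0.99 ± 0.29 over 4, beside 1.34 ± 0.45 in mdx against WT. Aqp4, the water channel tethered by the dystrophin complex, read 7.65, 8.17 and 6.65 in Cmah KO and 9.23, 8.46 and 8.70 in Cmah KO mdx (1.31 ± 0.48 over 6 arrays, 1.05 ± 0.38 over 4). The mdx hearts, at 8.72 to 9.32, also lay above the WT hearts, at 7.65 to 8.54. Dsc2, a desmosomal cadherin of the intercalated disc, read 10.30, 10.44 and 5.82 against 11.25, 9.41 and 11.20. Its value was 1.77 ± 1.00 over 6 arrays, 0.86 ± 0.24 over 4 and 0.73 ± 1.00 in mdx against WT, where the groups did not overlap. The SE of that last difference was 0.2 in the fit of 10 arrays, without Cmah KO replicate 3 and Cmah KO mdx replicate 2.

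Ndrg4, a cytoplasmic protein of heart and nerve, read 9.95, 10.35 and 4.81 in Cmah KO and 11.56, 12.38 and 11.55 in Cmah KO mdx. The lowest value came from the low-quality Cmah KO replicate 3. The difference was 3.46 ± 1.10 over 6 arrays and 1.41 ± 0.33 over 4. WT and mdx hearts overlapped, with a difference of 0.24. Efhd2, a calcium-binding actin regulator, read 9.19, 9.77 and 8.04 against 10.44, 11.03 and 11.10 (1.86 ± 0.54 over 6 arrays, 1.29 ± 0.51 over 4). Another tested probe set of Efhd2 stood at 0.08 over 6 arrays and -0.05 over 4. Nrp (0.99 ± 0.28), the kinetochore gene Cenpf (0.97 ± 0.58), Lca5l (0.87 ± 0.42) and the forkhead factor Foxq1 (1.5 ± 0.64) were likewise higher without overlap over 6 arrays, their 4-array differences being those in brackets. Over 6 arrays they stood at 1.48 ± 0.43, 2.15 ± 0.72, 1.63 ± 0.59 and 1.49 ± 0.55. The Cmah KO mean of Foxq1 lay below the 40th percentile of heart values, so its size is uncertain. Over all genes 307 (2.34%) were higher without overlap over 6 arrays, and 967 (7.38%) over 4.

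**Figure D3:**
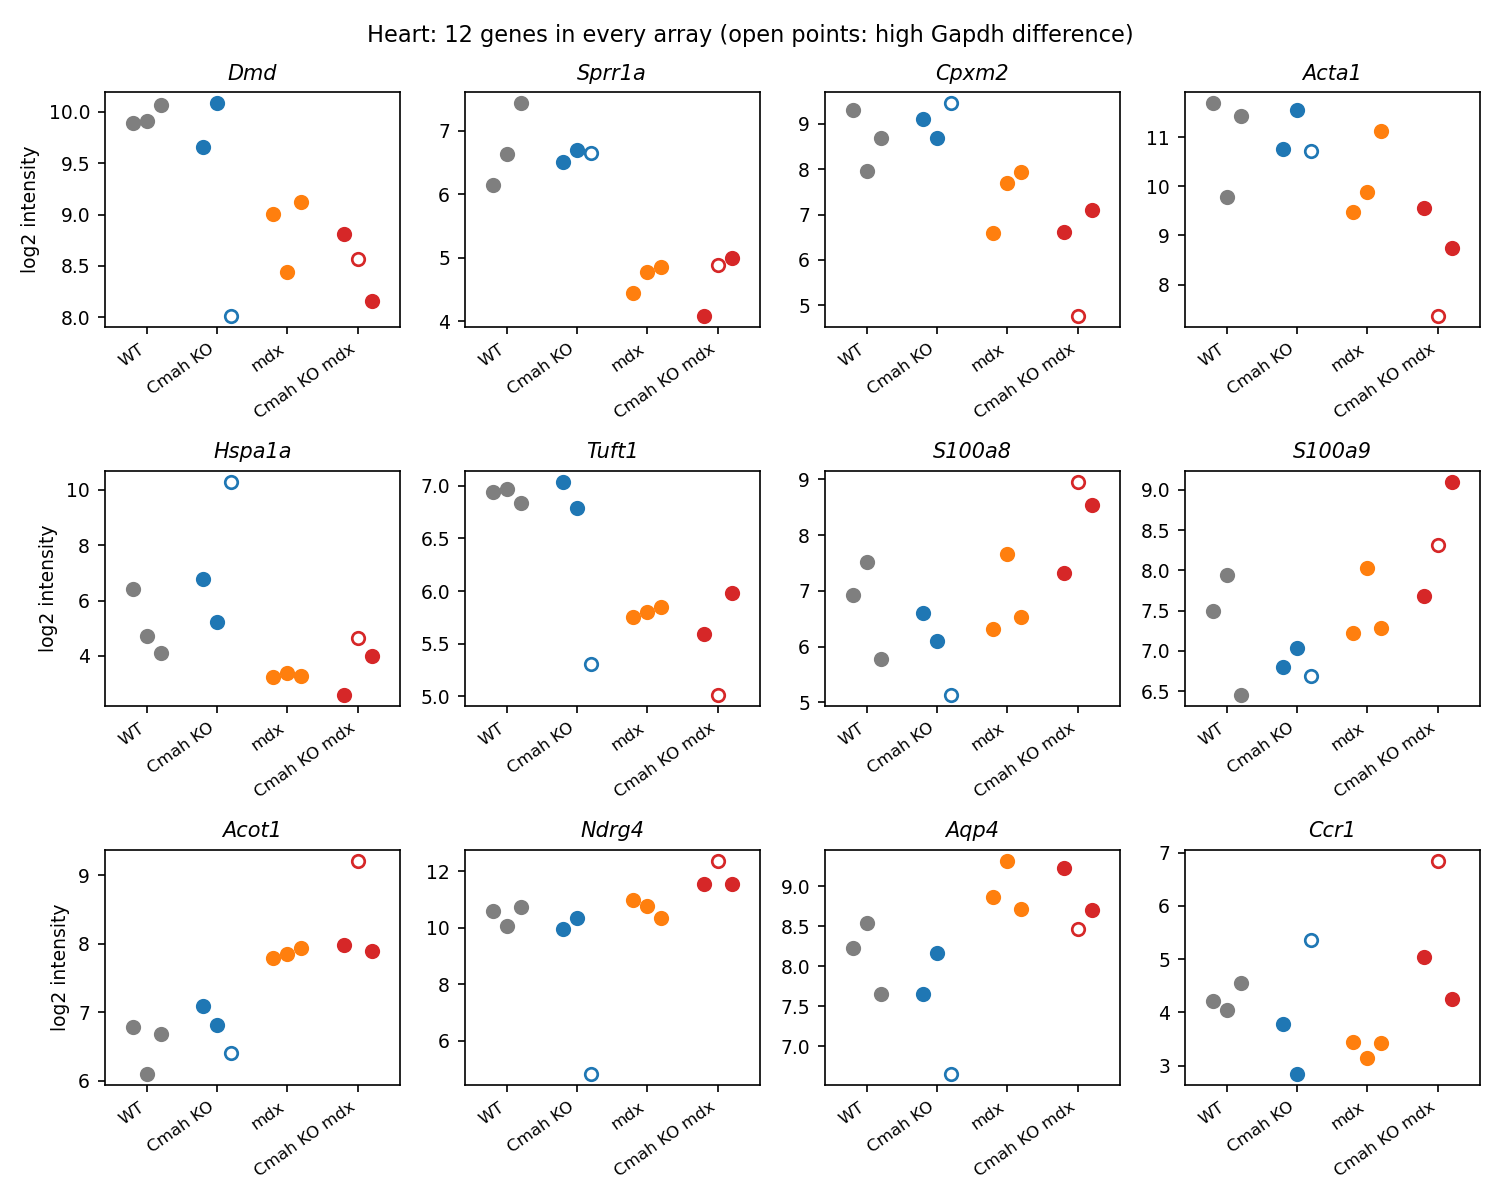
Log2 intensity of 12 genes in each of the 12 heart arrays by group, with the low-quality arrays as open points and a scale of its own for each gene. Sprr1a, Tuft1 and Acot1 separate WT from mdx hearts and, apart from open points for Tuft1, Cmah KO from Cmah KO mdx hearts, while S100a8 and S100a9 separate only the latter pair of groups.

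Extracellular matrix genes were uniformly a little lower in Cmah KO mdx over 4 arrays. All 29 tested members of the list had a lower mean (53.5% of all genes did), with a median of -0.49, and 15 of 29 did not overlap (9.88% of all genes), but 1 alone had an unadjusted p below 0.05 and 0 passed. Over 6 arrays the median was 0.04, below the 0.31 of all genes, and 16 of 29 were higher, so the direction rests on setting the low-quality arrays aside. Col8a1, a short-chain collagen, read 9.92, 9.41 and 3.76 in Cmah KO and 8.70, 8.47 and 8.53 in Cmah KO mdx and turned from 0.87 ± 1.18 over 6 arrays to -1.05 ± 0.26 over 4. Its other tested probe sets stood at -0.69 and -1.01 over 6 arrays and -0.49 and -0.63 over 4. Postn, the matricellular protein periostin, read 9.93, 9.72 and 10.10 against 8.46, 9.09 and 9.29. It was the one list member without overlap in all 12 hearts, at -0.97 ± 0.49 over 6 arrays, -0.95 ± 0.55 over 4 and -2.01 ± 0.49 in mdx against WT. Col1a1, the main fibrillar collagen, read 11.02, 11.32 and 11.48 against 10.64, 10.83 and 10.80 and also did not overlap over 6 arrays (-0.52 ± 0.37, and -0.45 ± 0.28 over 4). Bgn, the proteoglycan biglycan, stood at -0.40 ± 0.41 over 6 arrays and -0.70 ± 0.34 over 4, and Tnc, tenascin C, at -0.11 ± 0.54 and -0.70 ± 0.41.

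The matrix level also varied among the arrays of each group. Set against the WT mean, the median matrix gene stood at -0.55, -0.25 and -2.04 in Cmah KO replicates 1, 2 and 3 and at -1.37, -0.96 and -0.42 in Cmah KO mdx replicates 1, 2 and 3. Cmah KO mdx replicate 3 was thus close to Cmah KO replicate 2, and Cmah KO replicate 1 lay between them and Cmah KO mdx replicate 1. In mdx against WT hearts 27 of 29 were lower (median -0.46) and 10 did not overlap (3.91% of all genes lower, 3.97% higher), with mdx replicates at -0.20, -0.97 and -0.46. In gastrocnemius the same genes were higher in Cmah KO mdx, with a median of 0.86. Summed fibroblast markers read 12.42, 12.56 and 11.70 in Cmah KO and 12.21, 12.35 and 12.35 in Cmah KO mdx, and their part in the matrix values was not tested.

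**Figure D4:**
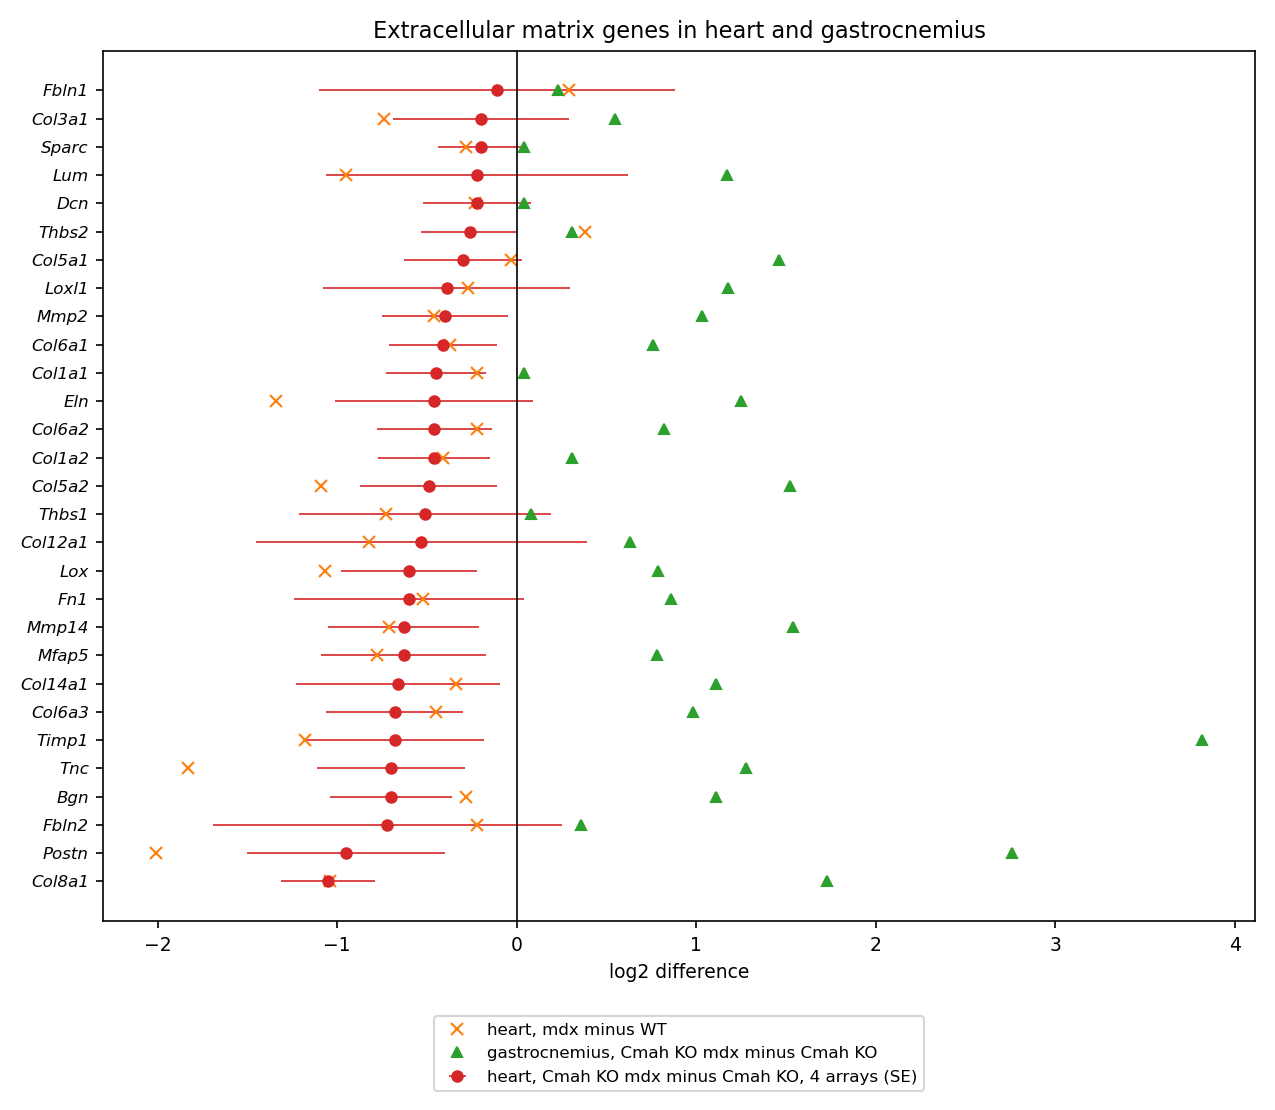
Log2 differences of the 29 extracellular matrix genes in heart over 4 arrays (circles, bars are SE), in mdx against WT hearts (crosses) and in gastrocnemius (triangles). All 29 circles lie below 0 and 27 of 29 crosses do, while the triangles have a median of 0.86.

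Genes of cardiac stress and the fetal programme read lower too, by a median of -0.41 over 4 arrays (17 of 20 lower) and -0.14 over 6. Thbs4, a thrombospondin of the loaded heart, read 8.04, 8.34 and 7.97 in Cmah KO and 6.42, 7.18 and 7.62 in Cmah KO mdx, without overlap (-1.05 ± 0.48 over 6 arrays, -1.17 ± 0.53 over 4). Cilp, a matrix protein of cardiac fibroblasts, read 8.20, 7.55 and 5.61 against 6.75, 8.86 and 6.83. It turned from 0.36 ± 0.72 over 6 arrays to -1.09 ± 0.41 over 4. Nppb, the B-type natriuretic peptide gene, read 10.65, 11.38 and 8.42 against 10.10, 7.00 and 10.32 (-1.01 ± 0.97 over 6 arrays, -0.81 ± 0.68 over 4), and Myh7, the slow myosin re-expressed under load, 11.04, 10.50 and 11.91 against 9.54, 10.87 and 10.11 (-0.97 ± 0.75 and -0.94 ± 0.89). Nppa, the atrial peptide gene, turned from 0.16 ± 0.48 to -0.14 ± 0.41. In mdx against WT 18 of 20 members were lower, with a median of -0.66. Acta1 is a member of this list, and Postn and Tnc are members of both this and the matrix list.

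Contractile genes stood near the median of all genes. Of 24 cardiac sarcomere genes 7 were higher over 4 arrays, with a median of -0.05, 0 with an unadjusted p below 0.05, and Myh6 at -0.02 ± 0.24 (0.08 ± 0.36 over 6). Calcium handling (median 0.00, 13 of 23 higher) and ion channel genes (-0.04, 8 of 19 higher) had medians near it as well. Subunits of the respiratory chain and ATP synthase were higher for 29 of 35 members over 4 arrays (46.5% of all genes), but by a median of only 0.11, with Ndufa1 at 0.31 ± 0.28, Sdhb at 0.22 ± 0.29 and Uqcrfs1 at 0.19 ± 0.23. Over 6 arrays, where the list median was 0.28 beside 0.31 for all genes, these stood at 0.57 ± 0.41, -0.03 ± 0.50 and 0.69 ± 0.49. Their 12 members without overlap had an all-gene background of 7.38%, and 0 had an unadjusted p below 0.05. Fatty acid oxidation genes were higher for 21 of 27 members over 4 arrays (median 0.09, and 0.55 over 6), among them Acot1 and Ucp3, a mitochondrial uncoupling protein (8.31, 7.89 and 8.00 against 8.70, 9.35 and 8.01). In mdx against WT the medians of both metabolic lists were -0.01 and 0.11.

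Other immune cell lists were tested too. Macrophage and monocyte genes had a median of 0.05 over 4 arrays (18 of 29 higher, 0 with an unadjusted p below 0.05) and 0.52 over 6, where all genes stood at 0.31. Summed macrophage markers were 12.66, 12.50 and 10.47 in Cmah KO and 12.64, 12.42 and 12.83 in Cmah KO mdx. Interferon response genes had a median of -0.04 over 4 arrays and 0.48 over 6, and complement genes -0.05 and 0.38. In gastrocnemius the macrophage list had a median of 1.95. Lymphocyte genes had a median of -0.46 over 6 arrays, with 1 of 13 higher, and -0.23 over 4, with 5 of 13 higher. The T cell receptor gene Cd3d stood at -1.35 ± 0.55 and -0.57 ± 0.45, and the antibody genes Ighm at -0.49 ± 1.13 and -1.66 ± 1.33 and Jchain at -1.05 ± 1.55 and -2.56 ± 1.81. Of the 25 tested cell cycle genes 20 were lower over 4 arrays (median -0.32) and 13 over 6 (median -0.05), among them Aurka, a mitotic kinase (4.69, 5.18 and 6.55 against 3.62, 5.10 and 4.34), whereas the median in gastrocnemius was 1.47.

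**Figure D5:**
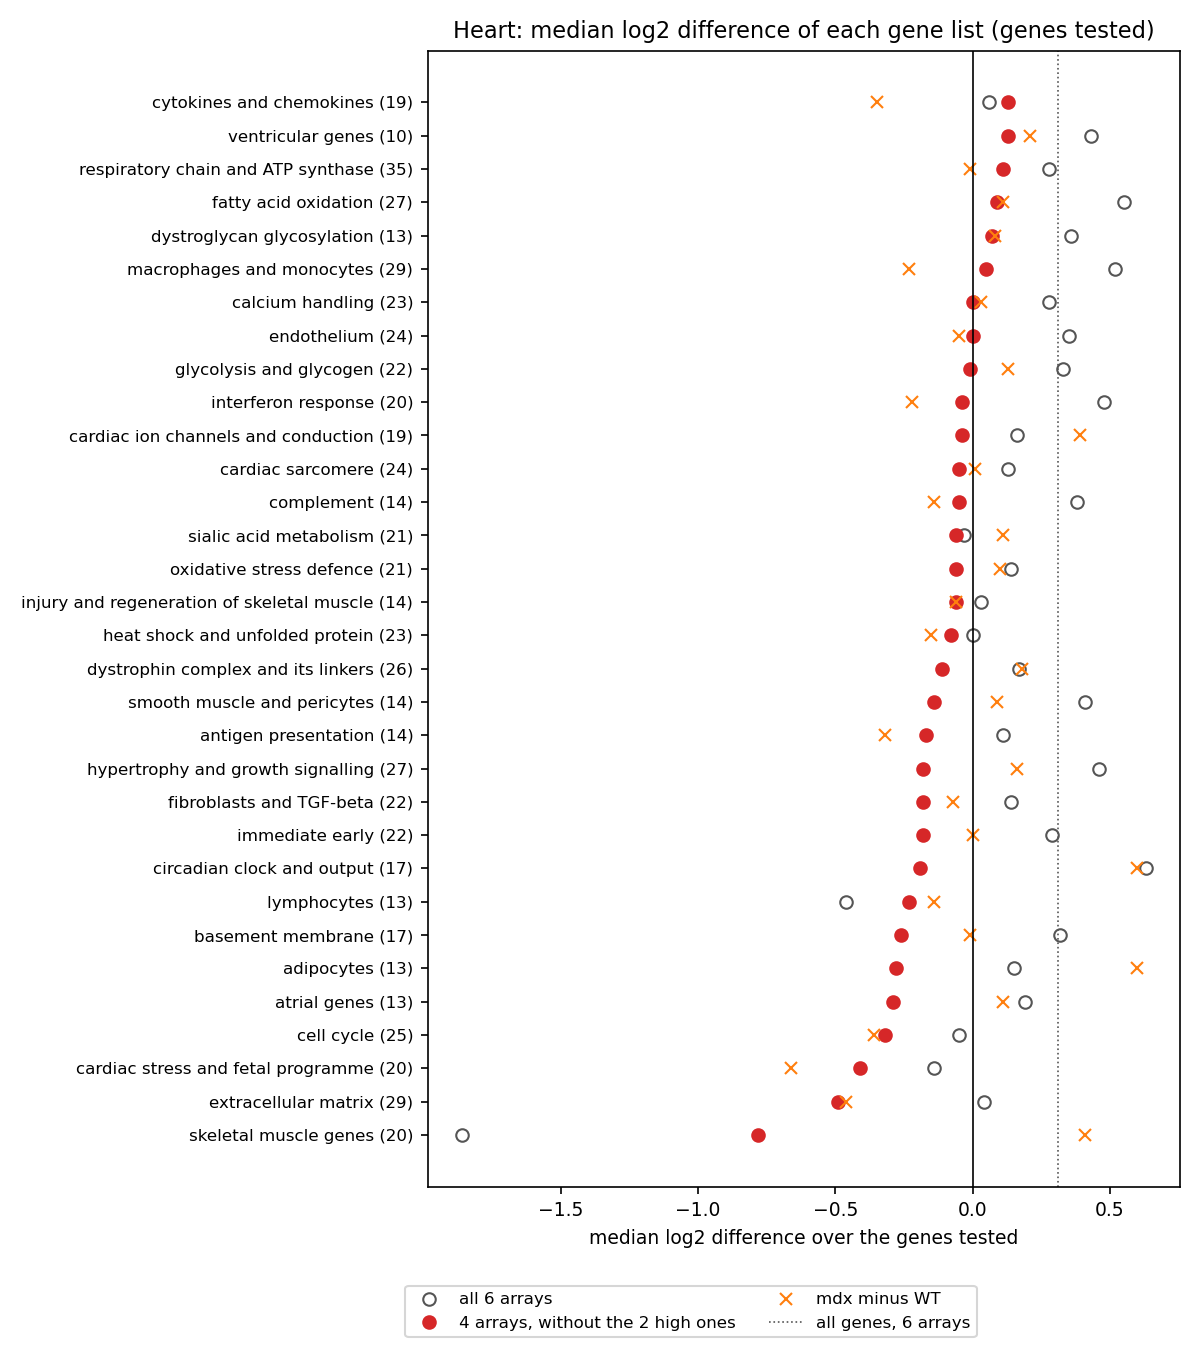
Median log2 difference of each list with at least 10 tested genes (number in brackets), over 6 arrays (open circles), over 4 arrays (filled circles) and in mdx against WT hearts (crosses), with the 6-array median of all genes, 0.31, as a dotted line. Skeletal muscle (-0.78), extracellular matrix (-0.49) and cardiac stress genes (-0.41) have the lowest 4-array medians.

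Whether dystrophin loss differed between hearts without and with Cmah was tested as an interaction. It gave 0 of 29421 probe sets (0%) over all arrays (lowest limma adjusted p 0.999, 143 at an unadjusted p below 0.05) and 0 (0%) without the low-quality arrays (301 unadjusted). In mdx against WT hearts, again 0 (0%) passed (103 unadjusted), but with array weights 72 were called higher and 61 lower, and 2 and 2 without both low-quality arrays and with the Gapdh difference as a covariate. The comparisons share no arrays, but in the fit they share 1 estimate of spread per probe set. A probe set of small spread can thus pass in both, so their overlap is not independent evidence. At an unadjusted p below 0.05 without the low-quality arrays, 264 and 358 of the 29421 probe sets were lower in these comparisons. Of them 51 were in both lists (19.3% and 14.2%). Among these were Sprr1a, Cpxm2, Dmd, Hspa1a, Hspa1b, Tuft1, Slc2a13, Col8a1, Lox, Cilp and Ltbp2. Of 96 and 356 higher, 9 were in both (9.38% and 2.53%), including Acot1, Aqp4, Dsc2 and Cox6b2, a testis form of a cytochrome oxidase subunit. Beside these, 3 of the 264 and 5 of the 96 had the opposite direction in mdx against WT at that p. Over 6 arrays 8 of 247 lower and 2 of 321 higher probe sets were shared, and 0 and 2 were opposite. Across all 13101 genes, which are not replicates, the differences correlated at r = 0.001 over 6 arrays and 0.074 over 4. Among 13101 genes some would separate 6 hearts from 6 others without any effect, and how many was not estimated. A gene separated all 6 dystrophin-deficient from all 6 other hearts in 27 cases, 11 higher (0.084%) and 16 lower (0.122%). Besides those named they included Ptn, the growth factor pleiotrophin (-0.72 over 4 arrays, -1.06 in mdx against WT), Fbn2, a fibrillin (-0.48 and -1.14), Amz1 (-1.02 and -0.84), Kif26b (-0.75 and -0.97) and Cox6b2 (1.13 and 1.03). Another tested probe set of Fbn2 stood at -0.04 over 6 arrays and 0.19 over 4. The other tested probe sets of Ptn stood at -0.17 and -0.82 over 6 arrays and -0.76 and -0.20 over 4. Both comparisons cross the same strain labels.

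The difference between Cmah KO mdx and Cmah KO was lower in heart than in gastrocnemius of the same animals at 17 of 31070 probe sets (0.0547%), by a test of the difference with animal as a random block, and higher at 0 (0%). In gastrocnemius 61 (0.196%) rose and 6 (0.0193%) fell, and 15 of the 17 were among these. Myh3, the embryonic myosin of regenerating fibres, read 5.08, 4.31 and 4.09 in Cmah KO hearts and 5.54, 5.58 and 4.62 in Cmah KO mdx hearts, against 6.78 ± 0.30 (SD, n = 3) and 10.13, 11.59 and 11.29 in gastrocnemius. The difference between the tissues was -3.47 ± 0.53 (limma adjusted p = 0.0237). Mymk (-4.32) and Mymx (-5.78), which make myoblasts fuse, were in the set, as were the macrophage genes Mmp12, an elastase (-6.81), Clec7a, the dectin-1 receptor (-4.15), and Cd300a (-3.02). Timp1, an inhibitor of matrix proteases, read 7.46, 7.72 and 7.30 against 6.27, 5.73 and 7.56 in heart and rose by 3.82 in gastrocnemius (difference -4.80). St8sia2, a polysialic acid synthase, differed by -3.80. The others were C1qtnf3 (-5.76), Kcne1l (-4.25), Fignl1 (-3.94), Vash2 (-3.45), Capn6 (-2.92), Pclo (-2.44), Shisal1 at both its probe sets (-3.65 and -2.45) and a probe set without a symbol (-2.73). In the same order they stood at -4.54, -3.50, -3.33, -3.04, -2.76, -2.49, -3.16, -2.36 and -2.70 without both low-quality hearts. C1qtnf3 read 2.19, 2.32 and 5.75 in Cmah KO hearts, the last in low-quality replicate 3, and 2.27, 2.01 and 2.10 in Cmah KO mdx hearts. For 8 of the 17 the heart level was too low to be tested in heart alone. They entered this test only through their gastrocnemius values, so their differences rest mostly on the rise in gastrocnemius.

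Without both low-quality hearts, 13 probe sets (0.0418%) were called lower in heart and 3 (0.00966%) higher, of which 7 were also called with all arrays: Myh3, C1qtnf3, Capn6, Vash2, St8sia2, Pclo and 1 of the Shisal1 probe sets. Newly called lower were Akr1b8 (-2.59, limma adjusted p = 0.0245), Gpr34 (-3.24, 0.0387), E2f8 (-3.15, 0.0387) and a probe set without a symbol (-3.84, 0.00481). Cilp (-2.76, limma adjusted p = 0.021) and Col8a1 (-2.77, 0.0387) were then called as well, with heart differences of -1.09 and -1.05 and gastrocnemius differences of 1.71 and 1.73. Over all arrays their heart differences were 0.36 and 0.87, of the same sign as in gastrocnemius, and their tissue differences -1.36 and -0.86 did not pass (limma adjusted p = 0.68 and 0.845). The called higher genes were Aqp4, Cdh4 and 0610040J01Rik. Aqp4 stood at 1.05 in heart and -1.08 in gastrocnemius (difference 2.12 ± 0.35, limma adjusted p = 0.0356, and 2.39 with adjusted p = 0.0543 over all arrays). Cdh4, a cadherin, and 0610040J01Rik fell by 3.18 and 2.73 in gastrocnemius and differed by -0.48 and 0.39 in heart (-1.04 and -0.29 over 6 arrays). The count of 17 moved to 2 without Cmah KO heart replicate 1, 33 without Cmah KO replicate 3, and 11, 6 and 7 without Cmah KO mdx replicates 1, 2 and 3.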

How the data were processed

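RNA of 24 tissue samples was measured on single-colour arrays. The deposited values are linear intensities of 45101 probe sets, and GCOS and RMA are named, without version, in the submitters' processing notes. How each was applied is not given in the sources used here. The 64 control probe sets were left out and log2 was taken of the rest, of which 34945 had 1 gene symbol, 932 several and 9160 none. Group means of the 12 heart arrays were fitted with limma 3.58.1 in R 4.3.3, with Benjamini-Hochberg adjustment over the 29421 probe sets above the 40th percentile of heart values in at least 3 arrays. Each of the 13101 genes was read from its probe set of highest mean. Heart and gastrocnemius were compared over the 31070 probe sets that passed the same filter within either tissue. That fit of the 24 arrays treats the animal as a random effect (correlation 0.217).

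Named genes were Dmd, Cmah, Utrn and Nnt, plus, since none passed the threshold, the genes of smallest p without overlap, up to 10 a direction over 6 arrays and up to 5 over 4, and up to 4 members of a list by p. Other list members named were chosen after their values were seen. The members and lists were chosen with earlier results of these data known. Labels give separate animals, and equal replicate numbers in different groups are different animals. Deviations of same-numbered Cmah KO and Cmah KO mdx hearts correlated at 0.480, -0.399 and -0.208, and those of other pairs at -0.234 to 0.532. With 3 arrays a group and low-quality arrays among them, these values cannot settle whether equal numbers mark a shared batch. The scripts were tested on simulated data. Alternatives were other filters, scalings, weights and covariates, a replicate block and leaving out arrays. The additions after seeing the data were those that combine leaving out both low-quality arrays with another setting.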

Additional observations from a re-analysis of the deposited data

Results flagged for a closer look

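At 17 probe sets the difference between Cmah KO mdx and Cmah KO was not the same in heart as in gastrocnemius, by limma's test of the interaction. The heart difference minus the gastrocnemius difference was -3.47 for Myh3, -5.76 for C1qtnf3, -4.25 for Kcne1l, -4.32 for Mymk, -3.65 and -2.45 for the probe sets of Shisal1, -4.80 for Timp1, -2.92 for Capn6 and -3.45 for Vash2. It was -3.80 for St8sia2, -3.02 for Cd300a, -4.15 for Clec7a, -3.94 for Fignl1, -2.44 for Pclo, -5.78 for Mymx, -6.81 for Mmp12 and -2.73 for a probe set without a symbol. Without both low-quality hearts 7 of the 17 were called, and the other 10 had limma adjusted p-values from 0.0732 to 0.156. C1qtnf3, Kcne1l, Mymk, Capn6, Vash2, St8sia2, Pclo and Mymx were too low in heart to be tested there alone. They entered this test only through gastrocnemius, so their differences rest mostly on the rise in gastrocnemius.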

How the results depend on the processing

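The heart comparison gave 0 calls under all 21 alternatives, with unadjusted counts from 64 to 3419 probe sets. With the replicate block it also gave 0 (695 unadjusted, lowest limma adjusted p 0.869). The heart interaction gave 0 calls in each alternative run. The 17 tissue calls became 6 with no filter, 10 with quantile normalization, 250 with array weights and between 2 and 33 on leaving out single hearts. The mdx against WT hearts gave 0 calls as fitted, 72 higher and 61 lower with array weights and 2 and 2 without both low-quality arrays and with the Gapdh covariate. Of the 29 genes named apart from list members, 26 kept their direction throughout, and Cmah, Utrn and Nnt did not. Those 3 and Dmd were named whatever their values, and the rest were picked for groups without overlap. For genes separated over 6 arrays, leaving out arrays could not reverse the direction. The count of 26 was thus partly fixed by how the genes were chosen. Among the list members named, Col8a1, Cilp, Lcn2, Sgca, Sgcb, Vcl, Nppa, Myh6 and Sdhb changed sign without both low-quality arrays. Cmah, at 0.45, became -0.44 without both low-quality arrays, -0.51 with the Gapdh covariate added, -0.44 in the 4 arrays alone, -0.38 with quantile normalization added, and -0.14 to 1.09 on leaving out single hearts. Utrn, at 0.16, became -0.26, -0.27, -0.26 and -0.30 under the same settings, -0.29 with quantile normalization, -0.23 with array weights and -0.67 to 0.60 on leaving out single hearts. Nnt, at -0.04, became 0.05 with median centring, 0.06 with array weights and -0.19 to 0.12 on leaving out single hearts. The cause was not tested. With 3 arrays a group, or 2 without the low-quality ones, and signal near background for many genes, moderate differences could not be resolved.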
